A study of Mus musculus with 2 samples.

Results

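Genes that define serotonergic neurons and genes for serotonin receptors were examined in ventral midbrain tissue of mice aged 2 months, in 1 library labelled Ctrl and 1 labelled OE. They were the rows of the gene count table with the symbols Tph2, Fev, Slc6a4, Htr1a, Htr1b, Htr2a, Htr2c, Htr4 and Htr7, which are 9 of 31252 gene rows. All 9 had a row, and 8 averaged 10 counts or more, the minimum used for a fold change. Ctrl mice carried Slc6a3-Cre, in which Cre recombinase is made where the dopamine transporter gene is active, and OE mice carried Slc6a3-Cre with the CAG-S-COUP-TFII allele, from which Cre switches on the nuclear receptor COUP-TFII. The strain of both was given as incipient congenic C57BL/6. The study's methods describe a cross in which Ctrl and OE littermates also carry a floxed Tfam allele and a tdTomato reporter, but the sample labels name neither, and how many mice each library holds is not given in the sources used here. With 1 library per genotype there was no replicate, so no test between genotypes was made, and every interval below covers counting error only.

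The libraries held 16984336 and 21326632 counts (labelled Ctrl and labelled OE). Nr2f2, the gene for COUP-TFII, had 637 counts under the label Ctrl and 377 under the label OE, so the overexpressed gene goes against the labels. For this reason the libraries are named by their labels throughout, and each direction below is one between labels. The study measured its rise in COUP-TFII mRNA in isolated dopaminergic neurons, whereas Nr2f2 was counted here in whole ventral midbrain tissue. Whether the sample titles were exchanged was not tested. The samples are labelled as dopaminergic neurons, but the source was ventral midbrain tissue: Mbp, a myelin gene of oligodendrocytes, had 128974 and 139810 counts, against 2499 and 9354 for Th, the rate-limiting enzyme of dopamine synthesis. In such tissue, fewer cells of a type and less RNA per cell cannot be told apart.

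Serotonin is made from tryptophan by neurons of the raphe nuclei, which lie along the midline of the midbrain and hindbrain, next to the dopaminergic nuclei at their rostral end. Tryptophan hydroxylase, encoded in these neurons by Tph2, makes 5-hydroxytryptophan, which the decarboxylase Ddc turns into serotonin. The transporter encoded by Slc6a4 takes serotonin back up, and Fev (also called Pet-1), an ETS-family transcription factor, keeps these genes on. Raphe axons reach most of the brain, including the substantia nigra and the ventral tegmental area, where receptors on local cells and on incoming axons receive the signal. Htr1a and Htr1b couple to the inhibitory Gi/o proteins, Htr2a and Htr2c to Gq/11, and Htr4 and Htr7 to Gs.

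The windows around the transcription start, from 250 bases before it to 50 bases after it, were taken from RefSeq (GRCm38.p6) for 8 of the 9 genes. Those of Tph2, Slc6a4, Htr1b and Htr2c are shown, the first 3 because their counts differed most between the libraries and Htr2c because it alone held a nuclear receptor half-site. Sequences run 5′ to 3′ on the strand of the gene. Capitals mark the TATA box TATAAA, the ETS site CGGAAG and the nuclear receptor half-site AGGTCA, each searched on both strands, so a half-site on the other strand reads TGACCT. No window held more than 1 match, so none overlapped.
Tph2 (chr10:115184973-115185272, minus strand): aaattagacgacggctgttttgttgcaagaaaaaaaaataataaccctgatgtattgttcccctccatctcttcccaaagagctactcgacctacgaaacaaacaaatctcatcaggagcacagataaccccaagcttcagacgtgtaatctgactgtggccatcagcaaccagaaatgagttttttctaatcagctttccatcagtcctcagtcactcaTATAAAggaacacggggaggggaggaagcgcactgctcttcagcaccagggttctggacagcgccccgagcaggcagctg
Slc6a4 (chr11:76998347-76998646, plus strand): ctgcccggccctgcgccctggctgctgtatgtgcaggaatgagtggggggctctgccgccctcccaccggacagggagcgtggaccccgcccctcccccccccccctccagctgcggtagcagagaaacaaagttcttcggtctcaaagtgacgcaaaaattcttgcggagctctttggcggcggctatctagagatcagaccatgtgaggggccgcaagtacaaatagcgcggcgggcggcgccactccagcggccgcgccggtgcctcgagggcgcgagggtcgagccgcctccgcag
Htr1b (chr9:81633783-81634082, minus strand): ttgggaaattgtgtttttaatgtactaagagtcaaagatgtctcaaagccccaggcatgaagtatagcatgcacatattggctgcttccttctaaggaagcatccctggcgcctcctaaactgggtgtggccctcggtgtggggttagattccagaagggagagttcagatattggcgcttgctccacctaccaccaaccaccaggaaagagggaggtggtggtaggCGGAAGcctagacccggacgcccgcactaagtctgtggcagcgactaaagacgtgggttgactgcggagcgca
Htr2c (chrX:146962263-146962562, plus strand): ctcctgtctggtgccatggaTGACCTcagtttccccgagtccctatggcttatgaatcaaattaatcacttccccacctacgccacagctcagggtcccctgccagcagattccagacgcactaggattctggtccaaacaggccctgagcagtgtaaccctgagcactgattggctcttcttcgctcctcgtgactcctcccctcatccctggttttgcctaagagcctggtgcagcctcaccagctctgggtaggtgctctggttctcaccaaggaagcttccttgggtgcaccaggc

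Of 32851 RefSeq windows of this length, 13.6% held TATAAA, 16.9% held CGGAAG and 16.3% held AGGTCA. Among the 8 genes, TATAAA was found in Tph2 alone, where it began at position -30 from the start. The only CGGAAG was in Htr1b, at position -23, and the only AGGTCA was in Htr2c, on the opposite strand, with its first printed base at position -230. The windows of Slc6a4 and Tph2 held 28 and 9 CG dinucleotides, against a median of 7 over all windows. Htr7 had 46 and Htr2c 5. A match to these letters is a description of the window and not a bound site.

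In both libraries the 3 most abundant of the 9 genes were receptors. Levels between genes were compared as RPKM, the count scaled for the size of the library and for the length in kilobases of the longest protein-coding transcript (GENCODE M21). Htr2c stood first, with an RPKM of 36.1 in the library labelled Ctrl and 35.4 in that labelled OE. Htr7 followed with 6.66 and 6.74, then Htr1a with 4.01 and 4.28, and none of these 3 overlapped its neighbour in counting interval. Htr2a had an RPKM of 1.43 and 1.13, Htr1b 0.893 and 0.489, and Htr4 0.817 and 0.688. Tph2, at 0.424, stood below these 6 receptors in the library labelled Ctrl, and at 1.13 it stood next after Htr1a in that labelled OE. In the library labelled OE the interval of Tph2 overlapped that of Htr2a and, narrowly, that of Htr4, so Tph2 could not be ordered against either. The order among Htr4, Htr1b and Slc6a4 was not resolved there either. Htr1b and Htr4 could not be ordered in the library labelled Ctrl, and neither could Htr4 and Tph2 or Fev and Slc6a4.

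**Figure D1:**
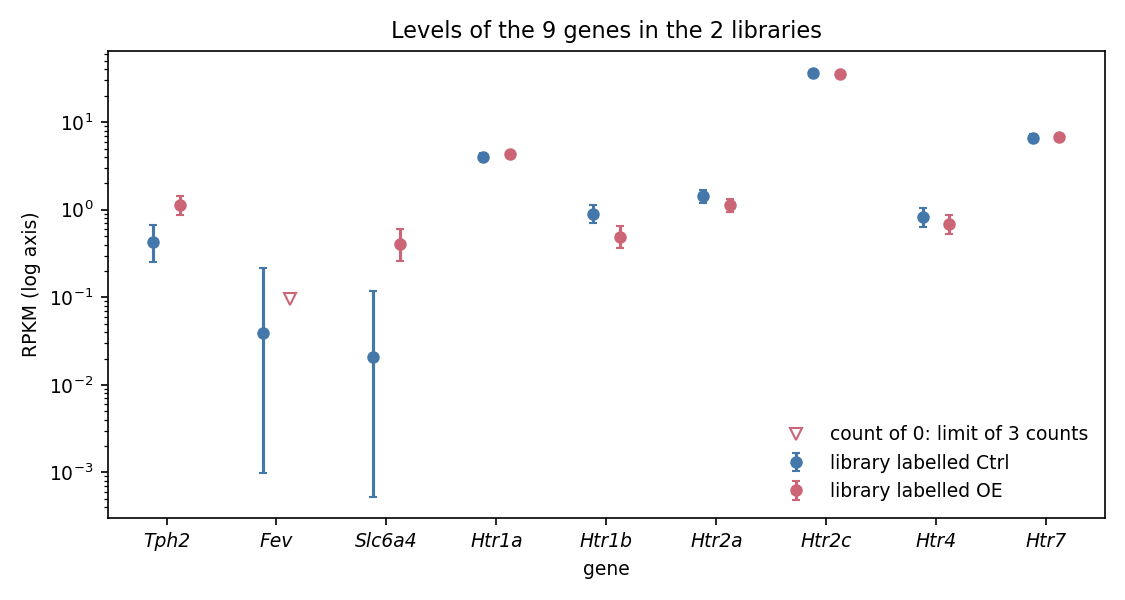
RPKM of each gene (log axis) in the library labelled Ctrl and the library labelled OE, with exact 95% Poisson intervals; the open triangle is the limit of 3 counts for Fev, which had 0 counts in the library labelled OE. Htr2c lies near 36 in both libraries, while Tph2 and Slc6a4 are higher and Htr1b is lower in the library labelled OE.

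Over the 6 receptors, Htr2c made up 72.3% of the summed RPKM in the library labelled Ctrl and 72.7% in that labelled OE. By coupling, the Gq/11 pair held 75.2% and 74.97%, the Gs pair 15.0% and 15.2%, and the Gi/o pair 9.82% and 9.79%. Htr2c alone sets most of these shares. Without it, the Gq/11 class, then Htr2a alone, held 10.4% of the summed RPKM of the other 5 receptors in the library labelled Ctrl and 8.46% in that labelled OE. The order depended on transcript length for 1 receptor in particular. Htr4 has 4 annotated protein-coding transcripts, the longest of 4661 bases and the mean of 2130, and with mean lengths it stood next after Htr1a in both libraries. Its interval then overlapped that of the gene below it, Htr2a in the library labelled Ctrl and Tph2 in that labelled OE. That place was therefore not resolved.

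Between the libraries, 2 of the 8 genes were higher by more than log2 0.2 in that labelled OE (Tph2 and Slc6a4), 3 were lower by as much (Htr1b, Htr2a and Htr4) and 3 lay within that range (Htr1a, Htr2c and Htr7). Of all 15246 genes compared, 17.9% were higher and 16.6% lower by this threshold, the one the study's methods use. Tph2, Slc6a4, Htr1b and Htr4 had mean counts under 100, and among the 3511 compared genes with a mean of 10 to under 100 counts the same shares were 34.2% and 33%. A count of genes past log2 0.2 is therefore given as a description, and nothing is read from it. Where the 95% counting interval also had to exclude 0, Tph2 and Slc6a4 stayed on the higher side and Htr1b on the lower side, beside 9.9% and 9.16% of all compared genes, and 8.83% on the higher side among those of low count. Past log2 1 there were 2 higher (again Tph2 and Slc6a4) and 0 lower, against 1.53% and 1.28% of all compared genes and 5.38% of the low-count genes on the higher side. Slc6a4 met the minimum of 10 counts only through the library labelled OE. Its place on the higher side in each of these counts therefore follows from that minimum, and nothing is read from it. The median of the 8 genes was log2 -0.0059, beside 0.0046 for all compared genes.

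**Figure D2:**
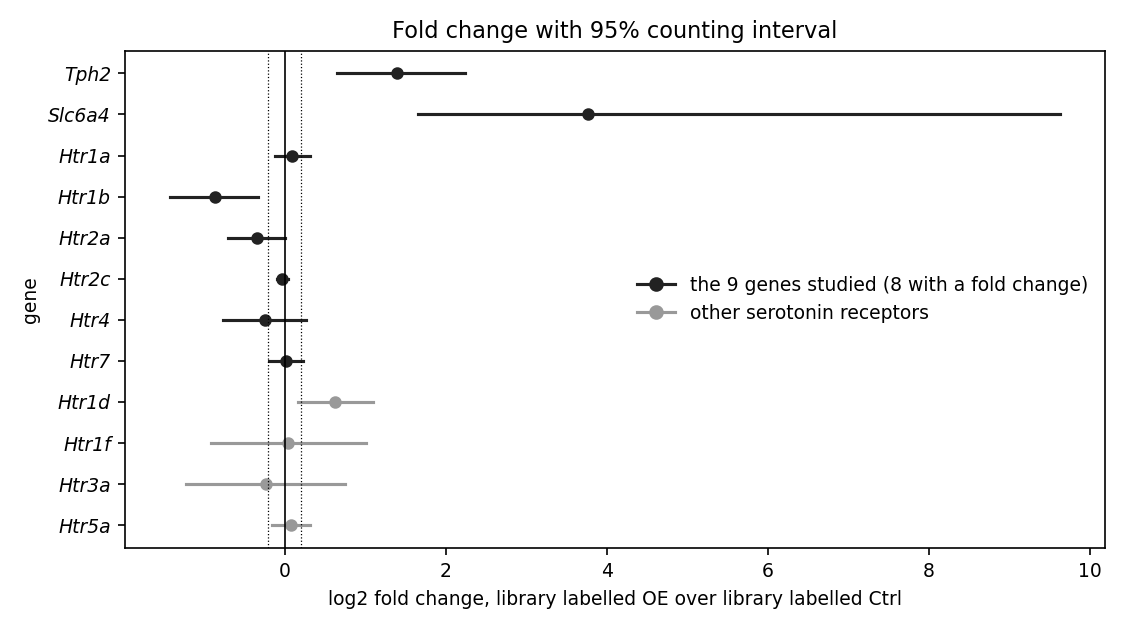
Log2 fold change (library labelled OE over library labelled Ctrl) of the 8 genes that averaged 10 counts or more (black) and of 4 other serotonin receptors (grey); lines are 95% counting intervals and dotted lines stand at log2 0.2 on either side of 0. The intervals of Tph2, Slc6a4 and Htr1d lie above 0, that of Htr1b lies below 0, and all others hold 0.

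Tph2, the brain form of tryptophan hydroxylase (ENSMUSG00000006764.8, chr10:115078641-115185022, minus strand), had 19 counts under the Ctrl label and 63 under the OE label. Scaled to library size as CPM (a gene's counts in each 1000000 counts of the library, after TMM scaling), its levels were 1.11 and 2.97, with exact Poisson intervals of 0.670 to 1.74 and of 2.28 to 3.80 that do not overlap. The log2 fold change was 1.40, with an interval from 0.66 to 2.24, a 2.67-fold higher level in the library labelled OE. This value was above those of 99.3% of compared genes. Most of those have higher counts: past log2 1 on the higher side stood 5.38% of genes with a mean of 10 to under 100 counts, against 1.53% of all. The window of Tph2 is the one with the TATA box printed above.

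Slc6a4, the serotonin transporter (ENSMUSG00000020838.12, chr11:76998603-77032340, plus strand), had 1 count under the Ctrl label and 24 under the OE label. The scaled ratio was 19.3, with a counting interval from 3.15 to 794, so its size was hardly bounded from above at this depth. Slc6a4 met the minimum of 10 counts only through the library labelled OE, and a gene that does so has to differ. GENCODE M21 also places an antisense gene over it, Gm12343, which had no row. On the log2 scale the fold change was 3.77 with a pseudocount of 0.5 and 2.12 with a pseudocount of 5. As for Tph2, this direction is one between labels, which Nr2f2 goes against.

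Fev (ENSMUSG00000055197.4, chr1:74881509-74885419, minus strand) had 1 count under the Ctrl label and 0 under the OE label. Both lie at or under 3 counts, the limit that a count of 0 allows, so no fold was taken. That limit is 0.141 CPM in the library labelled OE, where the exact Poisson interval of Fev reaches 0.174 CPM. At this depth Fev shows neither a difference nor its absence.

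**Figure D3:**
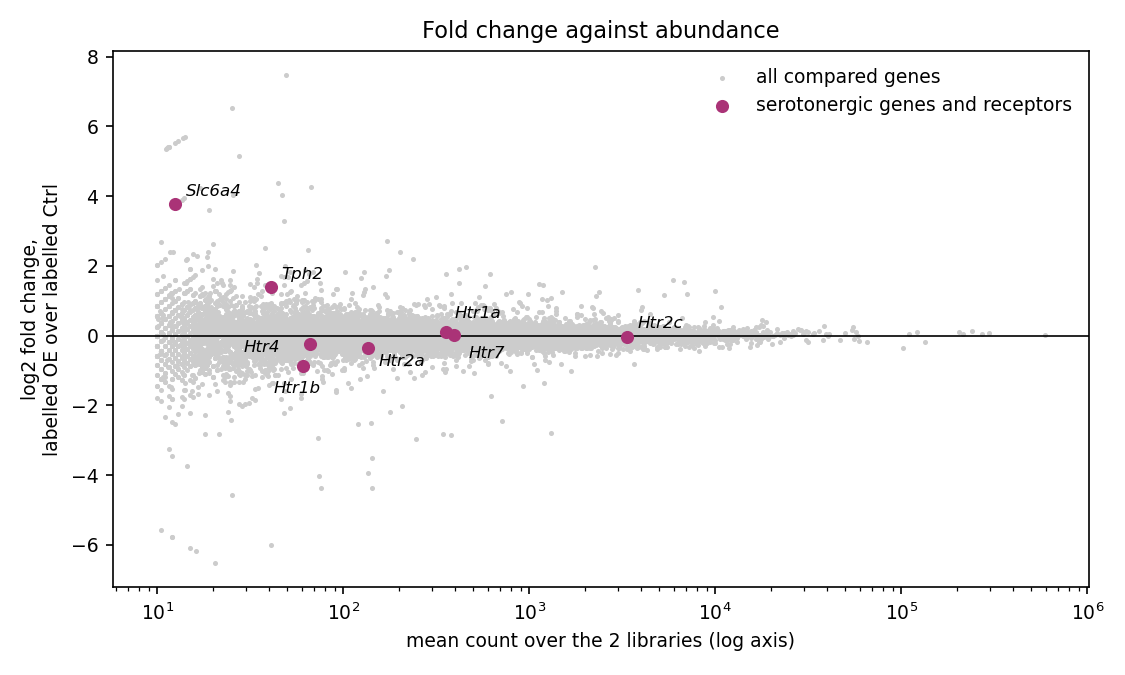
Log2 fold change (library labelled OE over library labelled Ctrl) against the mean count over the libraries (log axis) for all 15246 compared genes (grey) and the 8 serotonergic genes and receptors (purple). Slc6a4 lies at 3.77, Tph2 at 1.40 and Htr1b at -0.86, while Htr1a, Htr2c and Htr7 lie near 0.

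Of the Gi/o receptors, Htr1a was level between the libraries within its counting error and Htr1b was lower in that labelled OE. Htr1a, the autoreceptor on serotonergic cell bodies and a receptor of many other neurons, had 307 and 407 counts (labelled Ctrl and labelled OE; chr13:105443639-105448122, plus strand). Its log2 fold change was 0.093, with an interval from -0.12 to 0.31, so no difference was detectable at this depth. Htr1b, a receptor carried to axon terminals, where it restrains release, had 72 counts under the Ctrl label and 49 under the OE label (chr9:81628291-81633828, minus strand). This was a log2 fold change of -0.86, with an interval from -1.42 to -0.32, and 1.75% of compared genes had a lower value. Low counts spread more widely: 33% of genes with a mean of 10 to under 100 counts were lower by more than log2 0.2, against 16.6% of all. These shares take the fold alone. For genes of low count, no share on the lower side with an interval below 0 was computed. GENCODE M21 places the antisense gene D430036J16Rik over Htr1b, and it had 13 and 24 counts, which gave a log2 fold change of 0.56 with an interval from -0.46 to 1.67. The libraries were stranded, but whether counting used the strand is not given in the sources used here.

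Htr2a and Htr2c represent the Gq/11 class. Htr2a, the receptor of serotonergic hallucinogens in the cortex, had 137 and 134 counts (chr14:74640840-74709494, plus strand). After scaling this was a log2 fold change of -0.34, and the interval from -0.70 to 0.0090 held 0. Htr2c had 3010 and 3666 counts (chrX:146962513-147197277, plus strand), which gave a log2 fold change of -0.029 with an interval from -0.099 to 0.041. It is the most precisely measured of the 9 genes, with the narrowest interval among them.

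Htr2c is known both from neurons and from the epithelium of the choroid plexus, whose secreted carrier transthyretin is encoded by Ttr. Ttr had 426 counts under the Ctrl label and 67 under the OE label, a log2 fold change of -2.97 with an interval from -3.38 to -2.61. Of 10 choroid plexus markers, 7 met the minimum, around a median of -0.16. Of these, 3 were lower by more than log2 0.2 with an interval below 0 (Ttr, Kl and Enpp2), beside 9.16% of all compared genes. On the higher side, 0 passed log2 0.2 with an interval above 0, beside 9.9% of all compared genes. Clic6 at 0.22, Sostdc1 at 0.17, Slc4a5 at 0.15 and Otx2 at -0.16 had intervals that held 0. The other 3 markers were under the minimum, with 13 and 3 counts for Kcnj13, 10 and 4 for Folr1, and 3 and 9 for Aqp1. Summed over the 10 markers, the level was 664 and 512 CPM, most of it Enpp2, which oligodendrocytes also express. Htr2c was level between the libraries while Ttr was not. There were 7.07 counts of Htr2c for each count of Ttr in the library labelled Ctrl, and 54.7 in that labelled OE. The part of choroid plexus tissue in the counts of Htr2c was not tested.

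Htr4 and Htr7 raise cyclic AMP through Gs. Htr4 had 65 and 68 counts (chr18:62324204-62496577, plus strand), which gave a log2 fold change of -0.25, and its interval from -0.76 to 0.27 held 0. Htr7 had 350 and 440 counts (chr19:35958734-36057507, minus strand), which gave a log2 fold change of 0.017 with an interval from -0.19 to 0.22. Neither difference was detectable at this depth. Htr7 is a receptor of thalamic midline neurons among others, and thalamus markers did differ between the libraries: 9 of 10 on the list were lower by more than log2 0.2 with an interval below 0, beside 9.16% of all compared genes, at a median of log2 -1.48 and a summed level of 1026 and 622 CPM. Gbx2, with 29.9 and 0 counts, was the only one of them at 0 in a library, and setting it at its bound against 3 counts left that median at -1.48. Gbx2 met the minimum of 10 counts only through the library labelled Ctrl, so nothing is read from its place among the 9. The part of thalamic tissue in the counts of Htr7 was not tested.

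The other 8 serotonin receptor genes of the mouse on the list were also read. Htr1d, a Gi/o receptor close to Htr1b, had 61 counts under the Ctrl label and 117 under the OE label, a log2 fold change of 0.62 with an interval from 0.17 to 1.10. It was thus on the opposite side of 0 from Htr1b, and neither interval held 0. Htr5a had 269 and 354 counts (0.083, interval -0.15 to 0.32) and was about as abundant in counts as Htr1a. Htr1f and Htr3a, the subunit of the serotonin-gated channel, had between 18 and 23 counts in each library, and their intervals held 0. Htr5b and Htr6 had between 5 and 7 counts, Htr2b had 1 and 0, and Htr3b had 0 in both. Of these 8 receptors 4 met the minimum, and the median was 0.061. Past log2 0.2 with an interval that excluded 0, 1 was higher and 0 lower, beside 9.9% and 9.16% of all compared genes.

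Enzymes and carriers that handle serotonin lay on both sides of 0, and Ddc and Slc18a2, which dopaminergic neurons also use, were among the higher ones. Ddc, with 2799 and 7790 counts, stood higher under the OE label, at log2 1.16 (interval 1.10 to 1.23). The vesicular monoamine transporter Slc18a2, which loads serotonin as well as dopamine into vesicles, had 2965 and 10636 counts (1.53, interval 1.47 to 1.59). Gch1, which starts the synthesis of tetrahydrobiopterin, the cofactor of both tryptophan and tyrosine hydroxylase, had 136 and 580 counts (1.78, interval 1.51 to 2.06). The later enzymes of that cofactor pathway differed less, with Pts at 0.15 (interval -0.058 to 0.35) and Spr at 0.22 (interval 0.011 to 0.43). Qdpr, which recycles the cofactor, was lower in the library labelled OE at -0.36 (interval -0.40 to -0.31).

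Degradation and low-affinity uptake showed a mixed picture. The monoamine oxidases had intervals that held 0, with log2 fold changes of 0.10 for Maoa and 0.12 for Maob. Of the organic cation carriers that also take up serotonin, Slc22a3 had 39 and 22 counts and was lower in the library labelled OE at -1.12 (interval -1.96 to -0.35), whereas Slc29a4, with 23.2 and 33.1 CPM, was higher at 0.51 (interval 0.33 to 0.69). Tph1, the hydroxylase of the pineal gland and gut, had 0 counts under the Ctrl label and 9 under the OE label, which is at least 2.41-fold higher against the limit of 3 counts before the counting error of the 9 is taken in, and at least 1.59-fold higher by the counting interval. Aanat, which acts after it in melatonin synthesis, had 11 counts in each, and Asmt had 0. In all, 11 of these 13 genes met the minimum, around a median of 0.15. By more than log2 0.2 with an interval that excluded 0, 5 were higher and 2 lower, beside 9.9% and 9.16% of all compared genes.

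Of the 12 transcription factors and other genes of the serotonergic lineage, 8 lay above 0, beside 7782 of all 15246 compared genes. Nothing is read from that count. Lmx1b, which both serotonergic and dopaminergic neurons need, had 21 and 62 counts (log2 fold change 1.23, interval 0.51 to 2.04). Foxa2, a floor plate factor, had 67 and 221 counts (1.40, interval 1.01 to 1.83), and the engrailed genes of the midbrain-hindbrain boundary had the highest values, with 1.96 for En1 and 2.19 for En2. Gata2 and Gata3, which act in the serotonergic lineage and in midbrain GABA neurons, had 149 and 182 counts and 203 and 269 counts. Their log2 fold changes were -0.025 (interval -0.34 to 0.30) and 0.093 (interval -0.18 to 0.36). Nkx2-2, Insm1 and Slc17a8, the vesicular glutamate transporter found in many raphe neurons, also had intervals that held 0. All 12 genes of the list met the minimum, 6 were higher and none was lower by more than log2 0.2 with an interval that excluded 0, beside the 9.9% and 9.16% of all compared genes, and 0.49 was the median.

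**Figure D4:**
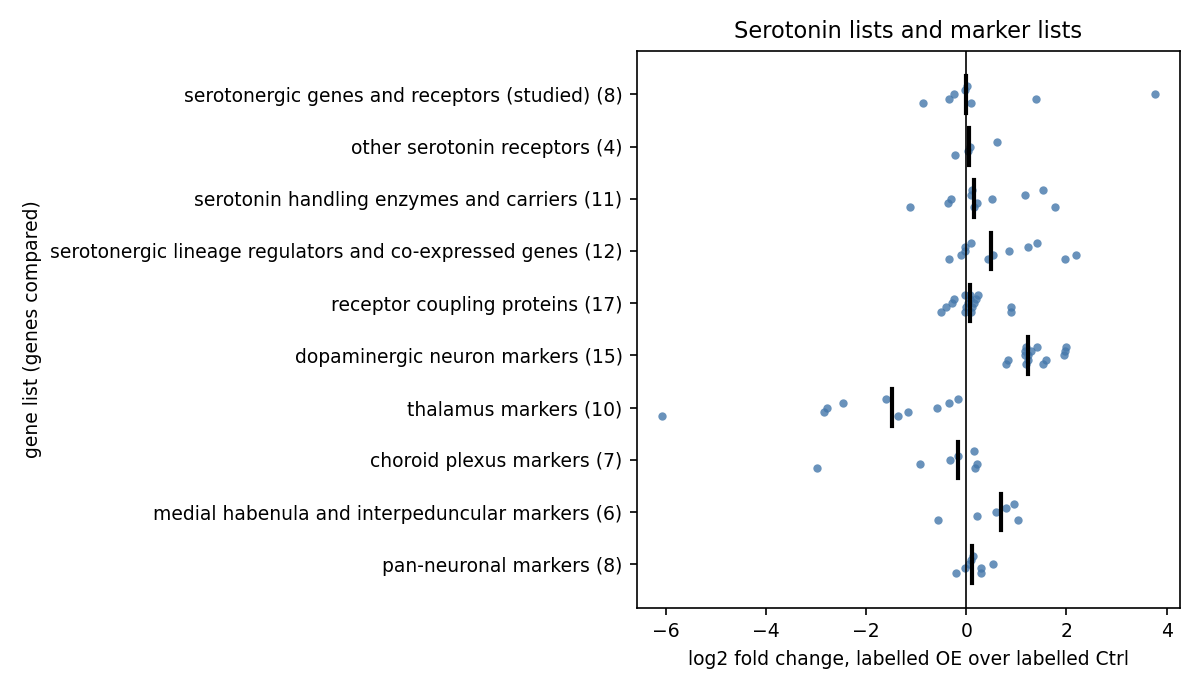
Log2 fold change (library labelled OE over library labelled Ctrl) of every compared gene of the serotonin lists and of the marker lists; each point is a gene, each black bar is the median of its list, and the number compared stands in parentheses. The 15 dopaminergic markers lie above 0 and the 10 thalamus markers below 0, while the 8 serotonergic genes and receptors lie on both sides.

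Markers of dopaminergic neurons, which lie beside the raphe, differed in the same direction as Tph2. All 15 were higher by more than log2 0.2 with an interval above 0, beside 9.9% of all compared genes, none was at 0, their median log2 fold change was 1.24, and their summed level was 1555 and 3682 CPM. Th, at 1.59 (interval 1.53 to 1.66), stood near the 1.40 of Tph2. There were 0.0076 counts of Tph2 for each count of Th in the library labelled Ctrl and 0.0067 in that labelled OE. The log2 ratio of these ratios was -0.17, with an interval from -0.94 to 0.65, so a difference in Tph2 relative to Th was not detectable at this depth. For Slc6a4 there were 0.00040 counts for each count of Th under the Ctrl label and 0.00257 under the OE label. The log2 ratio of ratios was 2.68, with an interval from 0.063 to 8.04, and it rests on 1 count under the Ctrl label. Slc6a4 met the minimum count only through the library labelled OE, so nothing is read from this ratio. Ddc, Slc18a2, Lmx1b, Foxa2 and En1 are on both the serotonin lists and the dopaminergic list. The part of these cells in the values of Tph2 and Slc6a4 was not tested, and since each label rests on 1 library, genotype and the site at which tissue was cut cannot be told apart.

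Other cell groups were read from their markers, with the rule of log2 0.2 and an interval that excluded 0. Dbh and Phox2a, which mark noradrenergic neurons, had 0 counts in both libraries, and Slc6a2 had 0 and 2. Of 7 markers of the medial habenula and the interpeduncular nucleus, 6 had a row and met the minimum; 4 of these stood higher under the OE label by the same rule and none lower, beside the same 9.9% and 9.16%, and 0.69 was the median. Their summed level was 18.0 and 29.5 CPM. Gpr151, with 11 and 9 counts, lay on the other side of 0 at log2 -0.57, with an interval from -2.05 to 0.81 that held 0. Pan-neuronal markers had a median of 0.12, with a summed level of 6089 and 6709 CPM. By the same rule, 3 of 8 were higher and 1 was lower, beside the same 9.9% and 9.16%.

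The G protein subunits to which these receptors couple had log2 fold changes within 0.2, apart from Gnaz at 0.24, while some channels and adaptors differed more. For the Gi/o class, Gnai1, Gnai2 and Gnai3 had log2 fold changes between -0.026 and -0.015 with intervals that held 0, and Gnao1 had 0.068. Gnaq, of the Gq/11 class, had 0.12, and Gnas, which encodes the Gs protein, had 0.15. Among the channels that Gi/o proteins open, Kcnj6, which is abundant in dopaminergic neurons, was higher in the library labelled OE at 0.89 (interval 0.65 to 1.14), while Kcnj3 at -0.40 and Kcnj9 at -0.51 were lower with intervals below 0. S100a10, an adaptor that binds Htr1b, had 144 and 333 counts and was higher at 0.89 (interval 0.61 to 1.19), on the other side of 0 from Htr1b itself. All 17 genes of this list met the minimum, and the median was 0.068. Past log2 0.2 with an interval that excluded 0, 3 were higher and 4 lower, beside 9.9% and 9.16% of all compared genes. As Nr2f2 goes against the labels, each of these directions holds for the labels alone.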

How the data were processed

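RNA from the ventral midbrain was sequenced as stranded libraries of polyadenylated RNA, read from both ends. The authors deposited expected counts, the reads estimated for each gene by RSEM (named in the title of the deposited table), made by the pipeline of a sequencing company. The build given with the labels is mm10; the aligner, the RSEM version and the annotation are not given in the sources used here. RSEM shares reads between similar transcripts, but all 9 genes had whole counts in both libraries. Columns were matched to samples by the number in the title. Counts were scaled by TMM (edgeR 4.0.16, R 4.3.3). Fold changes used a pseudocount of 0.5 scaled counts and a mean of at least 10 counts. Expected counts were rounded for exact Clopper-Pearson intervals (fold changes) and exact Poisson intervals (levels) at 95% (scipy 1.17.1, numpy 2.4.6, pandas 2.3.3, Python 3.11.15; figures with matplotlib 3.10.9). Positions and lengths are from GENCODE M21 (GRCm38, the same assembly as mm10).

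The genes, the lists and the alternatives were chosen with earlier results of these data known. The lists were compiled from general knowledge: other serotonin receptors, handling enzymes and carriers, lineage regulators, receptor coupling proteins, and markers of dopaminergic, thalamic, choroid plexus, habenular and interpeduncular, noradrenergic and all neurons. All 9 genes are given with both counts. Any gene of the serotonin lists could be named, and of each marker list the most abundant genes and those shared with a serotonin list. Nwd2 had no row. Some genes of the lists are not reported here by name. Folr1, Kcnj13, Aqp1, Kl, Sostdc1, Slc4a5, Gbx2, Gpr151 and the antisense gene D430036J16Rik, as well as Mbp, were named after their values were seen, as were the ratios between pairs of genes and the windows printed. The alternatives were DESeq2 size factors (version 1.42.0), total counts or the upper quartile for scaling, a pseudocount of 5, other minimum counts and thresholds, and mean transcript lengths.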

Additional observations from a re-analysis of the deposited data

How the results depend on the processing

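No paired analysis was possible because a pairing needs more libraries than 1 per label. All 32 fold changes of the 8 genes under another scaling or pseudocount stayed inside the counting interval of the reported value and on its side of 0 where past log2 0.2, Slc6a4 moving most, from 3.77 to 2.12. The list medians moved by at most log2 0.0273 under those 4 alternatives; the noradrenergic markers had none, since none met the minimum count. With a mean of at least 100 counts, 0 of the genes were higher and 1 (Htr2a) was lower, because Tph2, Slc6a4, Htr1b and Htr4 drop out by construction. With any count as the minimum, 2 of the 9 genes were higher and 4 lower. The gene added on the lower side was Fev, which had 1 and 0 counts and for which no fold is reported. For these other minimum counts no share of all genes was computed, and nothing is read from those counts. Past log2 1, 0 were lower, beside 1.28% of all compared genes. With an interval that excluded 0, 1 was lower, beside 9.16%. Over all genes, the 2723 higher and 2536 lower became 4513 and 4497 with any count, 1522 and 1377 with a mean of at least 100 counts, 233 and 195 past log2 1, and 1509 and 1396 with an interval that excluded 0. With mean transcript lengths, 6 of the 9 genes kept their rank by level in each library. Depth limits Fev, Slc6a4, Tph2, Htr1b and Htr4 most, and no result has a replicate check.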

Other observations

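Ratios between 2 genes of 1 library need no scaling between libraries. For each count of Htr1b there were 0.264 counts of Tph2 in the library labelled Ctrl and 1.29 in that labelled OE, a log2 ratio of ratios of 2.27 with a counting interval from 1.32 to 3.27. For Htr1d over Htr1b the ratios were 0.847 and 2.39, with 1.49 (interval 0.77 to 2.22). These pairs were chosen after their counts were seen, the values compare the 2 libraries and not the genotypes, and Nr2f2 goes against the labels.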
